A study of Mus musculus with 6 samples.

Results

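The mitosis and spindle genes are the transcripts that a dividing cell raises between the end of DNA synthesis and the separation of its daughters. The list held 38 names, and for each gene the brightest on average of the probe sets that carry its name alone was taken. 37 of the 38 were measured, out of 18194 genes in all. The B-type cyclin Ccnb1 had no such probe set among those named here and was not analysed here. All 37 passed the filter on low values, and no member signal on any array lay under 2.04 times the median of its array.

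Tumours were grown under the skin of the back from KPC1199, a line of mouse pancreatic ductal adenocarcinoma (PDAC). Lactating mice, injected while pregnant or at the onset of nursing, gave 3 of the tumours and control mice the other 3. All were collected 20 days after injection from mice of matched age, and each was hybridised to its own 3' Affymetrix array. The labels call the tumours biological replicates. Strain, age in weeks and the genotype of the line are not given in the sources used here, nor is it said which lactation mice were injected while pregnant. A tumour holds host cells beside the line, and both are mouse, so signal from host and line cannot be told apart by sequence. Array medians ran from 99.3 to 111.0. Of 12 duct epithelium markers 10 were measured and all 10 passed the filter, with summed signals from 75174 to 105610 in lactation and from 70277 to 88579 in controls.

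Entry into mitosis is driven by CDK1 bound to A- and B-type cyclins. Kinetochores then tie each chromosome to spindle microtubules, and the spindle checkpoint holds back the anaphase-promoting complex until every chromosome is attached. Once CDC20 activates that ubiquitin ligase, securin and the cyclins are destroyed, and the central spindle directs cytokinesis. Many of these genes are switched on together in G2 phase by the MuvB complex with B-MYB and FOXM1, acting at the cell cycle genes homology region, and by NF-Y at CCAAT boxes. In tumours their transcripts serve as markers of proliferation.

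Promoters of the members are shown because the elements named above are known in promoters of genes of late cell cycle phases. Most of these transcripts lay higher on control replicate 2 than on control replicate 1, as described further on. Whether promoter motifs bear on that gap was not tested. The RefSeq table (build GRCm38.p6) held 35 promoters for 33 of the 38 names, each covering 250 bases before the start and 50 after it. Aurkb, Tpx2, Ccna2, Foxm1 and Kif20a were not among them. The sequences of 7 members follow 5′ to 3′ in the direction of the gene. Capitals mark TTTGAA, the core of the homology region, or its reverse TTCAAA, and CCAAT or its reverse ATTGG. The windows are chr10:69352863-69353162 on the minus strand for Cdk1, chr9:70421505-70421804 minus for Ccnb2, chr7:122159185-122159484 plus for Plk1 and chr2:172370521-172370820 minus for Aurka. They are chr4:118437294-118437593 minus for Cdc20, chr2:164769679-164769978 plus for Ube2c and chr11:117848987-117849286 plus for Birc5.
Cdk1: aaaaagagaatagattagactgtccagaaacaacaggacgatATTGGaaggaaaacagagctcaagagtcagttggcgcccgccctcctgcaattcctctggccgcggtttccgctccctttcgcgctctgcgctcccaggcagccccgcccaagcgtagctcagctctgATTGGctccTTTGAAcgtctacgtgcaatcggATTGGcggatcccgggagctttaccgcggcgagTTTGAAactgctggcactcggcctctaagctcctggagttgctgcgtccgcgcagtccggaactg
Ccnb2: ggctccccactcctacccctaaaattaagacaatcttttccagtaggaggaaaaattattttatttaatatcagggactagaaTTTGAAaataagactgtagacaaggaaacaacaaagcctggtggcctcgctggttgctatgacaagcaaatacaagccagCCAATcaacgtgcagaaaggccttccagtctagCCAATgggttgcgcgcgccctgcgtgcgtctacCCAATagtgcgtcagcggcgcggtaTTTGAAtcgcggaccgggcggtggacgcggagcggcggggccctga
Plk1: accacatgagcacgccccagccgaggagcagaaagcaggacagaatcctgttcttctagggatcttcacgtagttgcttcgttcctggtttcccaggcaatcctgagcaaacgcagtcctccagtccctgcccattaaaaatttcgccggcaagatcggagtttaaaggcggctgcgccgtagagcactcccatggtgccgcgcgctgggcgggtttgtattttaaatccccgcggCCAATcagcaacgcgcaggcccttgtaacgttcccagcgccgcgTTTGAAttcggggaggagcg
Aurka: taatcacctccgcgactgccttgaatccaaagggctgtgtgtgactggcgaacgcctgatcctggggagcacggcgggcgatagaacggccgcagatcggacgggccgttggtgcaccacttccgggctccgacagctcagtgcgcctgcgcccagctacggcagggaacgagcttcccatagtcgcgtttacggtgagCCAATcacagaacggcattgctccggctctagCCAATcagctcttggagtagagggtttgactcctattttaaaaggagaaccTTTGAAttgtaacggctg
Cdc20: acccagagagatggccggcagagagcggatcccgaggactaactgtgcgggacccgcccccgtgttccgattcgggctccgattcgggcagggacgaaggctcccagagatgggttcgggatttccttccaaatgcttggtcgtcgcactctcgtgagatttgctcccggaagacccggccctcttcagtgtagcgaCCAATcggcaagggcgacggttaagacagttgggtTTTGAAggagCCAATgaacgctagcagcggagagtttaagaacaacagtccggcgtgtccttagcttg
Ube2c: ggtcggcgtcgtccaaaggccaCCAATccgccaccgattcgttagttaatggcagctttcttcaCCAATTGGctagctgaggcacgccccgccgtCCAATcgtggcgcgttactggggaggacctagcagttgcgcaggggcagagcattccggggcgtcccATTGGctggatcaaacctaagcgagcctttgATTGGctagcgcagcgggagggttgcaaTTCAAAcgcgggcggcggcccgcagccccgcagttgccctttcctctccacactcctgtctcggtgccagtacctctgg
Birc5: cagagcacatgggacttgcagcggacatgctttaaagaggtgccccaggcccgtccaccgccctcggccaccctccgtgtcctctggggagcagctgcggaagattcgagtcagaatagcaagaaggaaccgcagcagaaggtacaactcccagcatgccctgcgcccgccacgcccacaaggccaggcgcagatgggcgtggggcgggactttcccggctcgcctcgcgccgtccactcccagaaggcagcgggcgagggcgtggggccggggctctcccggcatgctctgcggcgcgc

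The letters TTTGAA, sought on both strands, stood in 25 of the 35 member promoters, or 71.4%. They stood in 17.9% of all 32851 promoters in the table, in 16% of those of protein-coding genes and in 12% of those of the genes tested on these arrays. Counting from 1 at the start base, with negative positions before it, the match nearest the start began between -103 and 41, with a median of 6. In Cdc20 it began at -18, in Ccnb2 at 5, in Plk1 at 31 and in Aurka at 33. In Ube2c the reverse form began at -29. Within 50 bases of the start the share was 65.7% in members and 4.94% in all promoters. The nearest match ran in the gene's own direction in 18 of the 25. Among lists of related genes set by known role, TTTGAA stood in 47.4% of promoters of other spindle and cytokinesis genes, 46.7% for condensin and cohesin, 37.5% for other kinetochore genes and 5.88% for cell cycle inhibitors.

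CCAAT, on either strand, stood in 74.3% of member promoters and in 37.4% of all. The share was 70% (7 of 10) for the list for entry into mitosis, which also holds genes of G1 phase. It was 68.4% for other spindle and cytokinesis genes, 65% for other kinetochore genes and 64.7% for cell cycle inhibitors. For DNA replication and S phase it was 54.8%, for condensin and cohesin 46.7%, for the anaphase-promoting complex 45% and for cell cycle transcription control 44.4%. Both motifs stood in 62.9% of member promoters against 6.95%. Ccnb2 held 3 CCAAT boxes, beginning at -87, -54 and -21, and Ube2c held 6, of which a forward and a reverse one share bases. A spacing of 30 to 35 bases between 2 such boxes, chosen after the sequences were seen, occurred in 20% of member promoters and 1.64% of all. It also occurred in 15.8% of the promoters of other spindle and cytokinesis genes and in 10% of those of other kinetochore genes. The share was 10% (2 of 20) for the anaphase-promoting complex and 7.14% for DNA replication and S phase. Birc5 is shown as a member whose window held neither motif.

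E2F-type sites differed by form. TTCCCGC, on either strand, stood in 0% of the member promoters, in 4.6% of all promoters and in 42.9% of the promoters of the list of DNA replication and S phase genes. TTGGCGC stood in 14.3% of member promoters, 2.45% of all and 16.7% of those S phase promoters, which held TTTGAA in 16.7%. TTCGAA, a variant of the homology region core and not an E2F form, stood in 8.57% of member promoters and 1.56% of all. It was counted apart from TTTGAA, so Bub1, which held TTCGAA at 15, is among the members without TTTGAA. A match is a description of these letters and not a measured binding site.

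The comparison of lactation with control asks whether whole tumours in a lactating host carry more or less transcript for the machinery of division. No member passed the test in either direction. Their log2 differences, lactation minus control, ran from -0.18 for the spindle assembly factor Tpx2 to 0.24 for the kinetochore gene Ndc80, with a median of 0.02 beside -0.01 over the 11622 genes tested. In limma with Benjamini-Hochberg adjustment over all genes tested, 0 of 37 passed an adjusted p under 0.05, as did 0% of all genes. At an unadjusted p under 0.05 the counts were 0 of 37 and 264 of 11622, or 2.27%. The groups overlapped in all 37, while 6.91% of all genes tested had groups that did not overlap. Each value is on the log2(signal + 16) scale, and 3 arrays a group limit the precision. In a bulk tumour a lower share of dividing cells and less transcript in each cannot be told apart.

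For 35 of the 37 the 95% interval of the difference lay within 1.5-fold in either direction, each gene taken alone. The share over all genes tested was 70.8%. The exceptions were Tpx2, with a lower bound of -0.61, and Foxm1, with a lower bound of -0.63. The median standard error of a member's difference was 0.12. 22 members had a positive difference and 15 a negative one. With each array centred on its median 13 of 37 were positive, and the median over all genes tested moved from -0.01 to -0.06. Without control replicate 1 the members' median was -0.07 and without control replicate 2 it was 0.09, so its sign rests on single arrays.

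**Figure D1:**
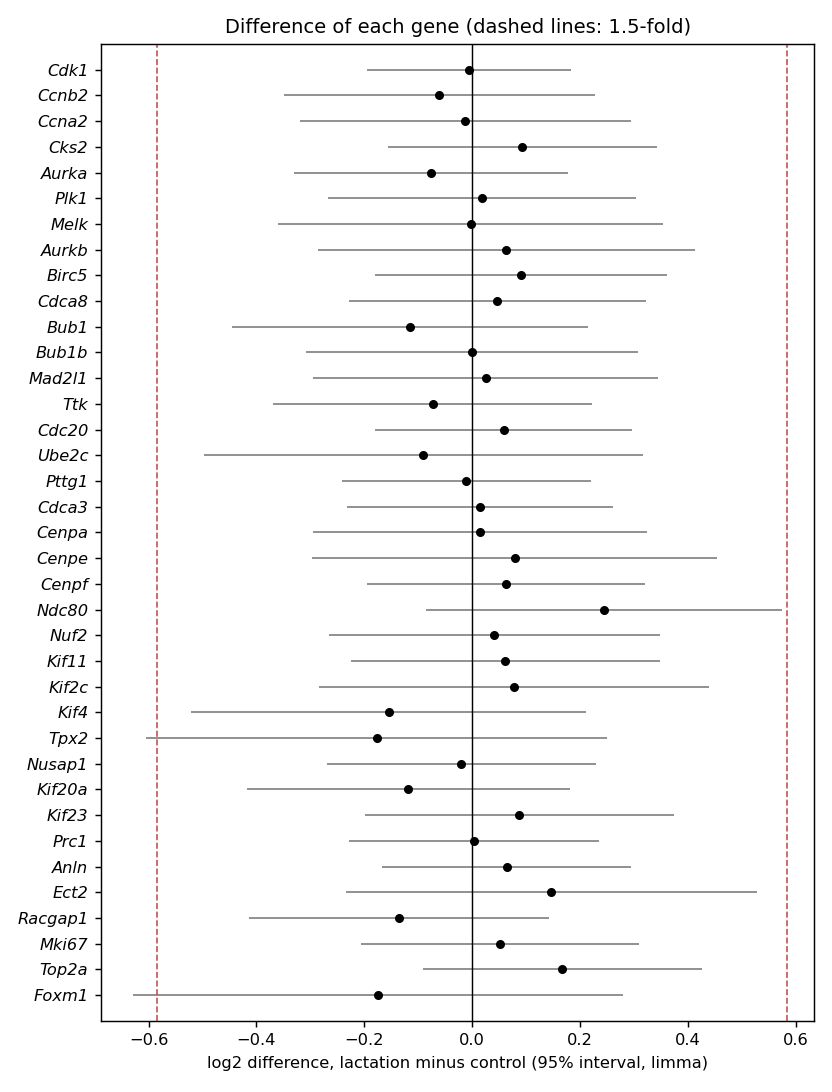
The log2 difference of each measured gene, lactation minus control (horizontal axis, points), with its 95% interval from limma (bars, 3 arrays against 3). Every interval crosses 0, and only those of Tpx2 and Foxm1 reach past the dashed line for a 1.5-fold decrease.

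Among the cyclins and CDK1, the kinase Cdk1 that starts mitosis had signals of 2339, 2247 and 2446 in lactation replicates 1, 2 and 3 and of 2214.5, 2479 and 2372 in the controls. Its values overlapped, and it differed by -0.01 (log2) at a standard error of 0.08. Ccnb2, a B-type cyclin that partners CDK1, measured 1369, 1345 and 1350 against 1182, 1588 and 1503, so that the lactation arrays lay between the lowest and the middle control. Cks2, a small subunit of the cyclin-dependent kinase complex, measured 5171, 5221.5 and 4803.5 against 4233, 5490.5 and 4593. The A-type cyclin Ccna2 had a difference of -0.01, Ccnb2 of -0.06 and Cks2 of 0.09. A further Cks2 probe set of like brightness had -0.09, so its probe sets disagree in sign.

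The mitotic kinases showed the same narrow range. Aurka, which matures centrosomes and builds spindle poles, measured 898, 860 and 880 in lactation and 813, 983 and 999.6 in controls. Plk1, the polo-like kinase of mitotic entry and exit, measured 947, 964 and 1083 against 859, 1113 and 993. Melk, a kinase whose transcript peaks in mitosis, had a mean signal of 556 ± 81.4 (SD, n = 3) in lactation and 557 ± 75.0 (SD, n = 3) in controls. None of their differences left the range from -0.08 to 0.02.

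The chromosomal passenger complex corrects faulty attachments and later moves to the central spindle. Its kinase Aurkb measured 771, 809 and 703 in lactation and 715, 881 and 608 in controls, where the highest and the lowest array were both controls. Birc5, or survivin, measured 2476, 2650 and 2447 against 2003, 2566 and 2583, and here control replicate 1 alone was low. Cdca8, or borealin, had a difference of 0.05. The differences of the 3 were 0.05 to 0.09 at standard errors of 0.12 to 0.15, and no sign held throughout. Without control replicate 3 Aurkb was at -0.06 and Cdca8 at -0.05, and without control replicate 1 Birc5 was at -0.03. With array weights Aurkb was at -0.03 and Cdca8 at -0.02, and with centred arrays Cdca8 was at -0.0052.

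In the spindle checkpoint the kinase Bub1 had the largest difference, -0.11 with a standard error of 0.14. Its lactation signals of 939, 960 and 940 lay close together, and the controls were 882, 1264 and 969. A dimmer Bub1 probe set past the filter had the other sign, at 0.12. Ttk, the kinase known as MPS1 that starts checkpoint signalling, measured 407, 378 and 403 against 363, 443 and 451. Bub1b, which encodes the inhibitor BUBR1, and Mad2l1, which encodes MAD2, had differences of 0.00 and 0.03.

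Of the genes on the ubiquitin ligase route to anaphase, Cdc20 measured 4453, 4699 and 5229 in lactation and 4091, 4989 and 4744 in controls. Ube2c, the ubiquitin-conjugating enzyme that works with that ligase, measured 3006, 2616.5 and 3430 against 2496, 3785 and 3449. Its control range was among the widest of the members, and its difference of -0.09 had a standard error of 0.17. Pttg1, which encodes securin, was the one member with all 3 lactation signals (3283, 3917 and 3141.5) outside the control range (3592, 3381 and 3400), 1 above it and 2 below. Cdca3, an adaptor for destruction of the mitotic inhibitor WEE1, differed by 0.02.

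Centromere and kinetochore genes had differences from 0.02 to 0.24, and none passed the test. The signs of Cenpa, Cenpe and Nuf2 rest on single arrays. Without control replicate 1 Cenpa was at -0.12 and Cenpe at -0.08, without lactation replicate 3 Cenpa was at -0.02, and without control replicate 3 Nuf2 was at -0.06. Cenpa and Nuf2 were at -0.04 and -0.01 with arrays centred on their medians and at -0.03 each with array weights. Ndc80, the microtubule-binding subunit of the outer kinetochore, measured 423, 539 and 526 in lactation and 368, 430 and 448 in controls. This was the lowest unadjusted p among the members, 0.123 in limma, at an adjusted p of 0.9998. Nuf2, the partner of NDC80 in the same complex, had a difference of 0.04 and means of 1144 ± 15.5 and 1122 ± 196 (SD, n = 3 each). Cenpe, a kinetochore motor, measured 829, 942 and 1028 against 704, 1019 and 948. The centromeric histone Cenpa differed by 0.02 and the kinetochore protein gene Cenpf by 0.06.

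Spindle motors and microtubule-binding genes had differences of either sign. Tpx2, which activates Aurora A and seeds spindle microtubules, measured 876, 706 and 679 in lactation and 666, 885 and 1036 in controls. Kif4, a chromosome-bound motor, measured 338, 357 and 374 against 384, 488 and 336. Both groups overlapped, and the unadjusted p in limma was 0.361 for Tpx2 and 0.353 for Kif4. Kif11, the motor that pushes the spindle poles apart, differed by 0.06, the microtubule depolymerase Kif2c by 0.08 and the spindle microtubule gene Nusap1 by -0.02. Dimmer Kif2c probe sets past the filter differed by -0.18 and 0.05, so its probe sets disagree in sign.

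For the central spindle and cytokinesis, Ect2, which activates RhoA at the division site, measured 2122, 2991 and 2561 in lactation and 2093, 2759 and 2067 in controls. Racgap1, the centralspindlin subunit that binds ECT2, measured 1574.5, 1430 and 1443 against 1473, 1913 and 1534. A further Racgap1 probe set of like brightness measured 1416.5, 1494 and 1486 against 1324, 1618 and 1228, a difference of 0.08, so its probe sets disagree in sign. On the probe sets used the differences were 0.15 for Ect2 and -0.14 for Racgap1, at standard errors of 0.16 and 0.12, and the mean of its probe sets gave -0.03 for Racgap1. Kif23, the motor subunit of centralspindlin, differed by 0.09, the cytokinesis motor Kif20a by -0.12, the microtubule bundler Prc1 by 0.00 and anillin, Anln, by 0.06.

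The proliferation marker Mki67, which coats mitotic chromosomes, measured 3238, 3690 and 3968 in lactation and 3111, 3635 and 3760 in controls. Top2a, the topoisomerase that untangles sister chromatids, measured 3658, 4752 and 4226 against 3485, 3749 and 3965. The difference of Mki67 was 0.05 (95% interval -0.21 to 0.31) and that of Top2a 0.17 (-0.09 to 0.43). Without lactation replicate 1 the difference of Top2a was 0.26 and that of Ndc80 0.35, at unadjusted p values in limma of 0.0353 and 0.0422. Neither passed the adjusted test. In that fit 2 of 37 members and 384 of 11622 genes tested had an unadjusted p under 0.05.

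The widest gap in these genes lay between 2 of the control tumours. Control replicate 1 had the lowest value of the 6 arrays for 26 of 37 members, or 70.3%, where it had the lowest for 14.6% of all genes tested. Control replicate 2 had the highest value for 17 of 37, or 45.9%, against 14.5% of all genes. No member had its highest value on control replicate 1 or its lowest on control replicate 2. The median deviation of the members from their own 6-array means was -0.16 on control replicate 1, 0.14 on control replicate 2 and 0.01 on control replicate 3. On the lactation arrays it was -0.03, 0.01 and 0.01. Over all genes tested these medians lay between -0.01 and 0.01 on every array.

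**Figure D2:**
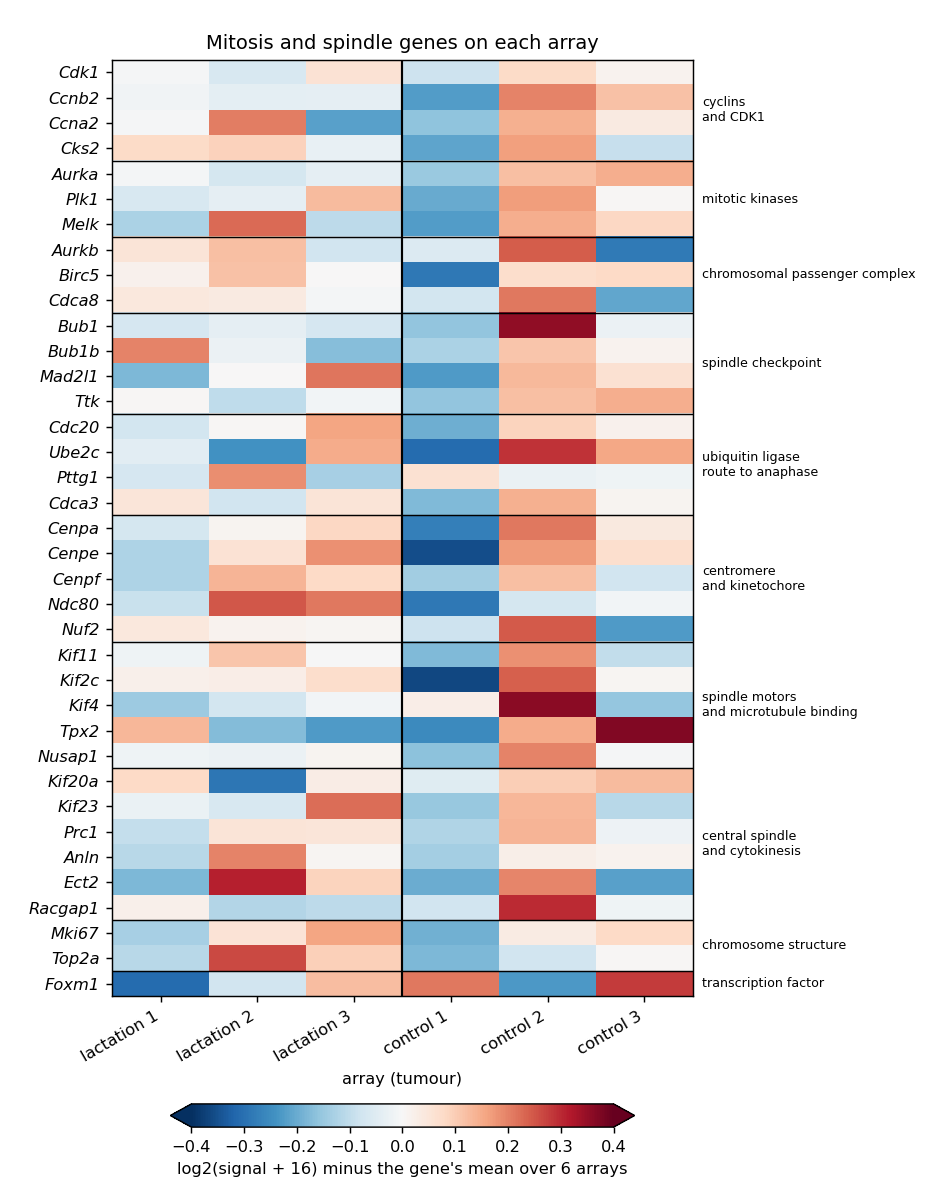
Colour gives log2(signal + 16) of each gene (rows, by role) minus its mean over the 6 arrays (columns, 1 tumour each). The column of control replicate 1 is blue for nearly all rows and that of control replicate 2 is mostly red. The 3 lactation columns are mixed. Foxm1 at the foot, on the probe set used, runs the other way.

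Set against each other, control replicate 2 lay above control replicate 1 for 35 of 37 members, with a median gap of 0.32 on the log2 scale. This contrast was chosen after the values were seen and has 1 array on each side, so it has no test. Over all genes tested 47.6% had the same sign, with a median gap of -0.01. The gap was 0.60 for Kif2c and for Ube2c, 0.52 for Cenpe and 0.51 for Bub1. It was 0.11 for Top2a and 0.16 for Anln and Cdk1. The exceptions were Pttg1 at -0.09 and Foxm1 at -0.44. These sizes are those of the probe sets used. Further probe sets past the filter gave smaller gaps for Kif2c (0.15 and 0.18), Bub1 (0.15) and Cenpe (0.44). They gave larger ones for Anln (0.41) and Top2a (0.19). For the exceptions they gave -0.11 and 0.44 in Foxm1, which disagree in sign, and -0.11 and -0.01 in Pttg1. On the probe sets used the median gap was 0.285 for the 23 measured members with TTTGAA in their promoter and 0.362 for the 9 without it.

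The range over the 3 control arrays had a median of 0.36 in the members and 0.29 over all genes, and the range over the 3 lactation arrays 0.20 and 0.28. For 19 of 37 members all 3 lactation values lay inside the control range, or 51.4% against 23.5% of all genes. With quantile normalization control replicate 1 was lowest for 26 members, with arrays centred on their medians for 23 and after averaging all probe sets of a gene for 22.

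Members with several probe sets gave a second reading of the same RNA. 20 members had 29 further probe sets past the level filter. In 24 of the 29 control replicate 2 lay above control replicate 1, with a median gap of 0.29. Control replicate 1 was lowest in 12 of them and control replicate 2 highest in 16. Their lactation differences had a median of 0.00, and 16 of the 29 had the sign of the probe set used. Groups did not overlap in 2 of the 29, a dim one of Cdc20 (250, 278 and 295 against 157, 203 and 233) and one of Foxm1. Over all genes tested, each on the probe set used, the share without overlap was 6.91%. The 2 brighter probe sets of Cdc20 differed by 0.06 and -0.06.

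Foxm1 encodes the transcription factor that activates many of the other members, and its own probe sets disagreed. The one used measured 205, 244 and 282 in lactation and 301, 218 and 316.5 in controls, which is -0.17 on the log2 scale at a standard error of 0.19. Another measured 268, 276 and 276 against 221, 204 and 200, a difference of 0.37 with no overlap. The last measured 155, 178 and 120 against 175, 243 and 185, a difference of -0.38. Only the last had its highest signal on control replicate 2. No direction can be given for Foxm1 from these arrays.

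**Figure D3:**
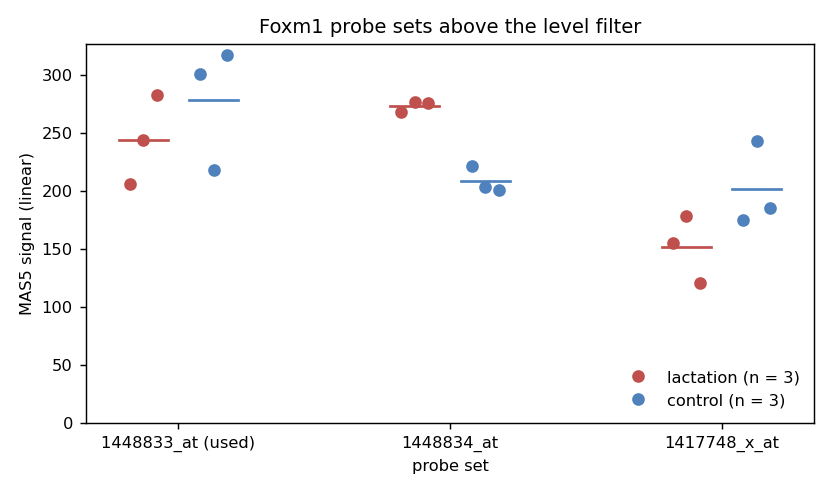
MAS5 signal (linear, vertical axis) of the 3 Foxm1 probe sets above the level filter, with a point for each array and a line at the mean of each group (n = 3). Lactation lies above control in the second probe set and its mean lies below control in the other 2.

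The other genes of the pathway came from lists set by known role. No gene in any of the 8 lists passed the adjusted test. Of 38 tested genes for the spindle and cytokinesis 24 had a positive difference, with a median of 0.04. The largest was -0.47 for Cit, the citron kinase of the midbody, at 317, 272 and 402.5 in lactation and 392, 579 and 422 in controls (unadjusted p = 0.051 in limma). Stil, a centriole assembly gene, differed by 0.23. Of 38 further kinetochore and centromere genes 18 were positive with a median of 0.00, led by Cenpc1 at 0.23 and Ska1 at -0.17.

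Subunits and regulators of the anaphase-promoting complex hardly varied, with 5 of 18 positive, a median of -0.02 and a range from -0.09 (Cdc16) to 0.06, Anapc13 having -0.08. In the condensin and cohesin list 8 of 19 were positive. Its Rad21, the cleavable cohesin subunit, measured 6691, 6364 and 6797 in lactation and 6093, 6093 and 5329 in controls, a difference of 0.18 whose groups did not overlap, while Ncapg of condensin had -0.21. DNA replication and S phase genes had 17 of 42 positive with a median of -0.02, from -0.25 for the primase subunit Prim2 to 0.21 for the replication helicase subunit Gins2.

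The array pattern of the members was present in the other spindle and cytokinesis genes, where control replicate 1 was lowest for 16 of 38 and 29 of 38 lay higher on control replicate 2. The median gap between these controls was 0.21 there and 0.15 in the other kinetochore genes. The cell cycle inhibitors also had a median gap of 0.15, with control replicate 1 lowest for 5 of 14 and 10 of 14 higher on control replicate 2. The gap was 0.01 for the anaphase-promoting complex and 0.00 for condensin and cohesin. In the DNA replication and S phase list it was -0.07, and control replicate 1 was the highest array for 14 of 42 genes and the lowest for 4. No test of the difference between lists was made.

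**Figure D4:**
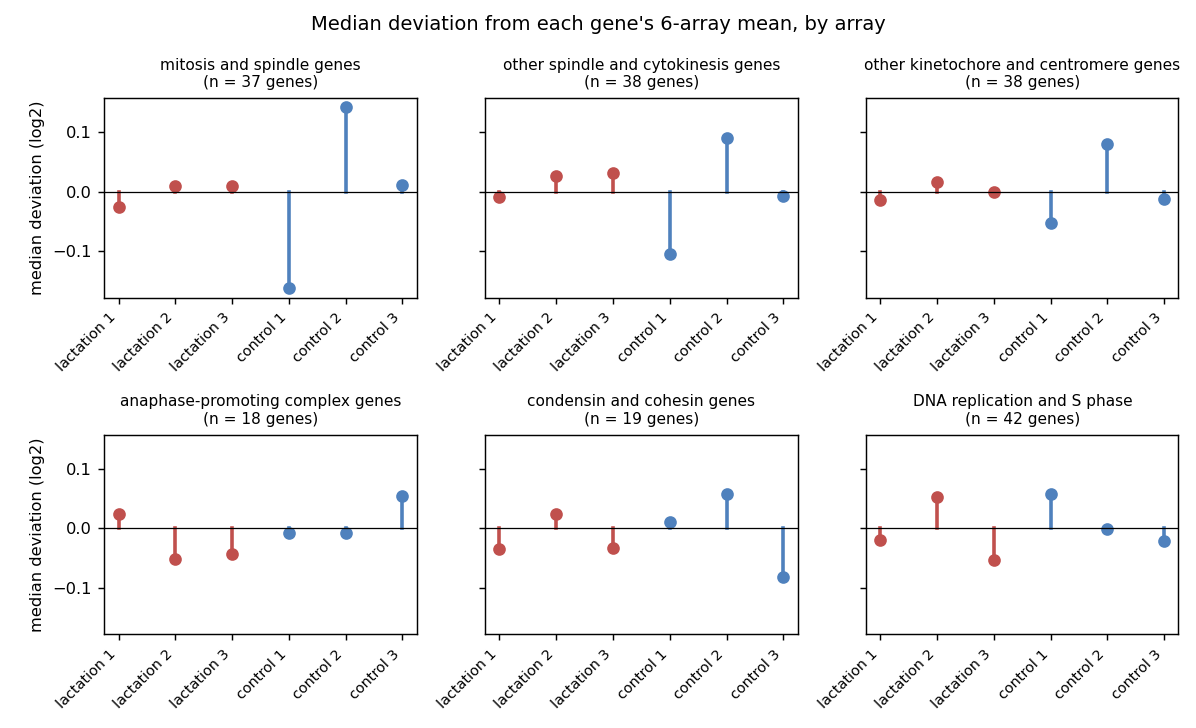
Median over the genes of each list of the deviation from a gene's own 6-array mean (log2, vertical axis), for each array (horizontal axis, lactation red, control blue). Control replicate 1 is at -0.16 and control replicate 2 at 0.14 in the members, while control replicate 1 is at 0.06 in the DNA replication and S phase list.

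Cell type markers also differed between these 2 controls. The summed signal of the duct epithelium markers was 88579 on control replicate 1 and 70277 on control replicate 2, so it ran against the members. That of 6 of 6 neutrophil markers, 5555 and 3738, also ran against them. The sums of 9 of 9 fibroblast markers were 76865 and 83735 and of 7 of 7 mast cell markers 6564 and 7504. Those of 9 of 9 macrophage markers were 56548 and 65993, of 8 of 8 endothelial markers 3004 and 3802.5 and of 7 of 9 T and NK cell markers 1504 and 2204.5. Larger gaps stood in the sums of 5 of 6 B and plasma cell markers (2263 and 5885). They also stood in those of 4 of 5 adipocyte markers (1310 and 4003) and 6 of 6 skeletal muscle markers (28328 and 63392). These counts are of markers measured. The B and plasma cell sum was mostly Ighm (1545 and 4906) and the adipocyte sum mostly Fabp4 (1235 and 3589). Past the level filter control replicate 2 lay above control replicate 1 for 0 of 10 duct epithelium and 1 of 4 neutrophil markers. It did so for 5 of 7 mast cell and 7 of 9 fibroblast markers, and for all tested markers of the other cell types. B and plasma cells and adipocytes had 2 tested markers each. Across all 3 controls the muscle sum ran from 8710 to 63392 and across the lactation arrays from 11573 to 61832. None of these markers was listed at 0. The part of these cells in the members' array pattern was not tested.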

How the data were processed

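Per the submitters' processing notes the authors made the deposited intensity values with MAS5 (version not given in the sources). Values are linear, 1 for each of 45101 probe sets on each of 6 arrays. The trimmed mean, leaving out 2% at each end, was 500.0 on every array. 34958 probe sets had 1 gene symbol in the platform annotation, 932 had several and 9211 had none. Detection calls were not used here.

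Each gene was taken at its probe set of highest mean, as log2(signal + 16). Genes with at least 3 of 6 arrays at or above the array median were tested, 11622 of 18194. Lactation and control were compared in limma 3.58.1 under R 4.3.3 (intensity trend, group as the only term), with Benjamini-Hochberg adjustment at 0.05, a fit checked on simulated data. Python 3.11.15, with numpy 2.4.6, pandas 2.3.3 and, for plots, matplotlib 3.10.9, served for motifs and summaries. The members and the lists were chosen with earlier results of these data known. Named genes are all members and, of each pathway list, the 2 with the largest difference. Members shown array by array are the 2 with the largest difference in each role and 9 set markers. Protein features were not analysed here. Alternatives are given in the closing section.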

Additional observations from a re-analysis of the deposited data

How the results depend on the processing

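In each of 17 alternatives 0 genes and 0 members passed an adjusted p under 0.05 in limma. These were 2 normalizations, added constants of 1 and 64, no filter, a filter at the 70th percentile, the mean of probe sets, no trend, robust eBayes, array weights, a replicate block and leaving out each array. The members' median difference ran from -0.07 to 0.09 when an array was left out. It was -0.04 with arrays centred on their medians, -0.02 with array weights and 0.03 with the mean of probe sets. In the others it was 0.01 to 0.02. The filters, the trend, robust eBayes and the block alter only which genes are tested or their variances. They leave each member's difference unchanged, so the median of 0.015 was fixed in advance there. With the mean of probe sets, which brings in dim ones, 5 members moved by more than their residual SD, Cenpa most, to 0.40 (unadjusted p = 0.0460 in limma). In that fit 1 of 37 members and 262 of 10688 genes tested had an unadjusted p under 0.05. With the replicate number as a block 0 genes were called. Same-numbered arrays had deviations correlated at 0.14, -0.08 and 0.27, so the numbers were not taken as pairs. The signal of every member lay well over the array medians, and the number of arrays, 3 against 3, limits the precision, with a median standard error of 0.14 over all genes tested.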

Other observations

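Genes that hold cells back from division were measured as well. Of 14 tested cell cycle inhibitors 8 had a positive difference, with a median of 0.01 and a range from -0.31 to 0.32. Btg2, an antiproliferative gene of the p53 response, measured 555, 606 and 768 in lactation and 503, 510 and 513 in controls, a log2 difference of 0.32 with groups that did not overlap (unadjusted p = 0.053, adjusted p = 0.9998 in limma). Gadd45a, a stress gene of the G2 checkpoint, had -0.31, and its groups overlapped.

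Among 21 tested genes of cell cycle transcription control 14 were positive. E2f1, an activator of S phase genes, measured 389, 421 and 341 in lactation and 469, 424 and 504.2 in controls, a difference of -0.27 with no overlap, while E2f8, a repressor of the same family, had 0.21. Of 15 genes in the list for entry into mitosis, which also holds genes of G1 phase, 9 were positive. Its extremes were such G1 genes, the D-type cyclin Ccnd3 at -0.13 and its kinase partner Cdk6 at 0.15. None of these passed the adjusted test.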
